A study of Mus musculus with 203 samples.

Results

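The prostanoid synthesis genes considered here were 8 genes that encode enzymes on the way from membrane arachidonic acid to prostaglandins and thromboxane, taken by symbol from the RNA-seq tables and not by their values. They were Ptgs1, Ptgs2, Ptges, Ptges2, Ptges3, Hpgds, Tbxas1 and Pla2g4a, and all 8 were found among the 25094 genes listed for RAW cells. All 8 also passed the filter on low values, which left 12905 genes for testing. The same 8 symbols were present among the 16478 genes listed for bone marrow-derived macrophages (BMDMs), where only the comparisons of wild-type and Gps2 KO cells made by the authors are listed, so no BMDM values are given here.

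Prostanoids are lipid mediators made from arachidonic acid. Cytosolic phospholipase A2 releases the arachidonic acid, the cyclooxygenases PTGS1 (COX-1) and PTGS2 (COX-2) turn it into prostaglandin H2, and terminal synthases turn prostaglandin H2 into PGE2, PGD2 or thromboxane A2. In macrophages Ptgs2 is best known as a gene induced by inflammatory signals and Ptgs1 as the more constant cyclooxygenase, while IL4 is a cytokine that drives alternative activation. KDM1A (LSD1) is a histone demethylase, and the study asked how its loss changes the expression of IL4 target genes, with Ptgs1 among the genes followed most closely.

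The 16 libraries came from RAW264.7 cells, a mouse macrophage line of BALB/c origin, in 4 groups of 4. Cells carried either a lentiviral hairpin against GFP (shGFP, the control) or a hairpin against Kdm1a (shKDM1A), and each line was left untreated or given 20 ng/ml of IL4 for 6 h. Both lines had been transduced and selected with puromycin and then expanded, and 1 hairpin was used for Kdm1a, so an effect of the knockdown cannot be told apart from a difference between these lines. The study's methods describe its experiments in general as done on biological replicates, but neither they nor the labels say whether the 4 libraries of a group here came from separate cultures, so p-values measure the spread between these libraries.

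Library totals ranged from 17554721 to 27782568 tags. The deposited values were on a log2 scale, already scaled between libraries, and 2 to the power of a value, summed over genes, gave 19698693 to 20649495 per library, so it is called scaled reads here. Kdm1a itself was at log2 values of 11.21, 11.23, 11.13 and 11.17 in untreated shGFP libraries and at 10.36, 10.32, 10.23 and 10.29 in untreated shKDM1A libraries. With IL4 it was at 11.12, 11.10, 11.12 and 11.07 in shGFP cells and at 10.32, 10.33, 10.34 and 10.28 in shKDM1A cells. The knockdown libraries were therefore below the control libraries without overlap, by 0.88 on the log2 scale without IL4 and 0.79 with IL4. Of 10 macrophage markers, 8 were tested and Mertk was under 1 in every library. All 7 mast cell markers, 3 T cell markers, 3 B cell markers and 4 fibroblast markers in the table were under 1 in every library. Summed macrophage markers ran from 17.63 to 17.68 in untreated shGFP libraries, from 17.29 to 17.31 with IL4, from 17.82 to 17.85 in untreated shKDM1A libraries and from 17.72 to 17.81 with IL4. The sum was carried mostly by Lyz2, and its markers did not move one way: with IL4 in shGFP cells 2 of the 8 were higher and 4 lower, with group means of 16.90 and 16.37 for Lyz2 and of 9.95 and 11.18 for Adgre1. With IL4 in shKDM1A cells 3 were higher and 4 lower, and in shKDM1A against shGFP cells 4 were higher and 3 lower without IL4 and 5 higher and 2 lower with it. Summed osteoclast markers, 5 of 6 tested, ran from 11.61 to 11.65, from 12.01 to 12.08, from 11.95 to 11.99 and from 12.21 to 12.35 in the same order of groups. That sum followed Nfatc1, with means of 11.14 and 11.78 in shGFP cells without and with IL4, while Dcstamp was at 9.40 and 8.85. Of the 5, 3 were higher and 2 lower with IL4 in both lines, and 2 were higher and 1 lower in shKDM1A cells without IL4 and 3 higher and 1 lower with IL4. Of 4 dendritic cell and 6 neutrophil markers, Zbtb46, Xcr1 and S100a8 were the ones tested, and the sums reached at most 4.53 and 2.45. The part of these shifts in the results below was not tested, and in bulk RNA fewer cells of a kind cannot be told apart from less RNA per cell.

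Promoters are shown for the cyclooxygenases and for the 2 terminal synthases that passed the test in all 4 comparisons of groups. Each is the 250 bases before the RefSeq start on GRCm38.p6, written in the direction of the gene, with capitals for any match on either strand to the words searched: the STAT words TTC and GAA with 4 or with 3 bases between them, the AP-1 word TGANTCA and the PU.1 word AGGAAGT. Ptgs1 is at chr2:36230176-36230425 (plus strand), Ptgs2 at chr1:150099781-150100030 (plus), Hpgds at chr6:65144731-65144980 (minus) and Tbxas1 at chr6:38918736-38918985 (plus).
Ptgs1: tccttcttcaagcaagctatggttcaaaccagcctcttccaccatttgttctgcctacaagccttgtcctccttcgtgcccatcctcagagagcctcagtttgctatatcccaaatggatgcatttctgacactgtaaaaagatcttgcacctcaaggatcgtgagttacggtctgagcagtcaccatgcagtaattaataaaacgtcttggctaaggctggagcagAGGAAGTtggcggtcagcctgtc
Ptgs2: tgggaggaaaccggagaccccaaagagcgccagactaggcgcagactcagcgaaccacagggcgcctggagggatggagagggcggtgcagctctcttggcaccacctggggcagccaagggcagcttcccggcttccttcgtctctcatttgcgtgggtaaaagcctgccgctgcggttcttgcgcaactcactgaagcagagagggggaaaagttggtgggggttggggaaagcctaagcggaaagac
Hpgds: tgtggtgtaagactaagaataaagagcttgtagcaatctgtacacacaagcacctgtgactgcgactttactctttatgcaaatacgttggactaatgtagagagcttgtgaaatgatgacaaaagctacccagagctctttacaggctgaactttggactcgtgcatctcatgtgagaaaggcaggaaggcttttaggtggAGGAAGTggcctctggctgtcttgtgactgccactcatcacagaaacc
Tbxas1: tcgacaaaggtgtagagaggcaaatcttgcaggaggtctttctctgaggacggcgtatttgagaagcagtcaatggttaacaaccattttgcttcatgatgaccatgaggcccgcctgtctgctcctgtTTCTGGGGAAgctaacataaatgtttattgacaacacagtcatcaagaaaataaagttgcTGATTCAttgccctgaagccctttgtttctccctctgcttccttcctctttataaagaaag

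The Ptgs1 window held the PU.1 word from base -23 to -17, counted from the start, and no STAT or AP-1 word. The Ptgs2 window held none of the 4 words. In Hpgds the PU.1 word lay from -48 to -42. Tbxas1 held a STAT word, TTCTGGGGAA, from -121 to -112 and an AP-1 word, TGATTCA, from -61 to -55. Among the other members, Ptges held a STAT word from -197 to -188, and 1 of the 2 Pla2g4a windows held the PU.1 word from -14 to -8. Counted over the 8 genes, 2 had the STAT word with 4 bases between, none the one with 3, 1 the AP-1 word and 3 the PU.1 word. Over all 32851 windows of this length, 5.9% held the STAT word with 4 bases between, 7.0% the one with 3, 6.7% the AP-1 word and 7.7% the PU.1 word. These matches describe the windows only, and neither a match nor its absence tells whether a factor binds. Enhancers were not searched. The study reported STAT6, PU.1 and JUNB (AP-1) at the Ptgs1 promoter and enhancers by ChIP-seq.

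Differences between groups were tested with limma in 1 model of the 16 libraries, with Benjamini-Hochberg adjustment over the 12905 genes and a threshold of 0.05. IL4 raised Ptgs1, Ptgs2 and Tbxas1 and lowered Hpgds in shGFP cells, so 4 of 8 members passed, where 26.9% of all genes did (13.1% higher and 13.7% lower). In shKDM1A cells IL4 raised the same 3 genes and Pla2g4a and lowered Hpgds, giving 5 of 8, beside 27.1% of all genes (13.6% higher and 13.5% lower). Without IL4, 7 of 8 members differed between shKDM1A and shGFP cells, with Ptgs1, Ptgs2, Ptges3, Hpgds and Pla2g4a lower and Tbxas1 and Ptges higher, beside 38.2% of all genes (19.7% higher and 18.4% lower). The seventh of these, Ptges, passed at an adjusted p of 0.04998 with overlapping groups, and its call was lost in 13 of 16 fits that left out 1 library. With IL4, 5 of 8 differed, with Ptgs1, Ptges3 and Hpgds lower and Tbxas1 and Ptges higher, beside 40.7% of all genes (20.9% higher and 19.8% lower). This second Ptges call was lost in 4 of 16 fits that left out 1 library. At 13.1 to 13.9 scaled reads by group mean, neither Ptges difference can be read as a difference in reads. The IL4 response itself differed between the lines in 3 of 8 members, beside 6.13% of all genes (3.56% larger or less negative in shKDM1A cells and 2.57% the reverse). The median difference of the 8 members ran from -0.23 to 0.15 over these 5 comparisons, while that of all genes was within 0.01 of 0. These comparisons share libraries, so they are not independent of each other. Tbxas1 counts in all 4 comparisons of groups at only 31.7 to 44.2 scaled reads by group mean. Its SD in each group was far below what counting alone would give.

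**Figure D1:**
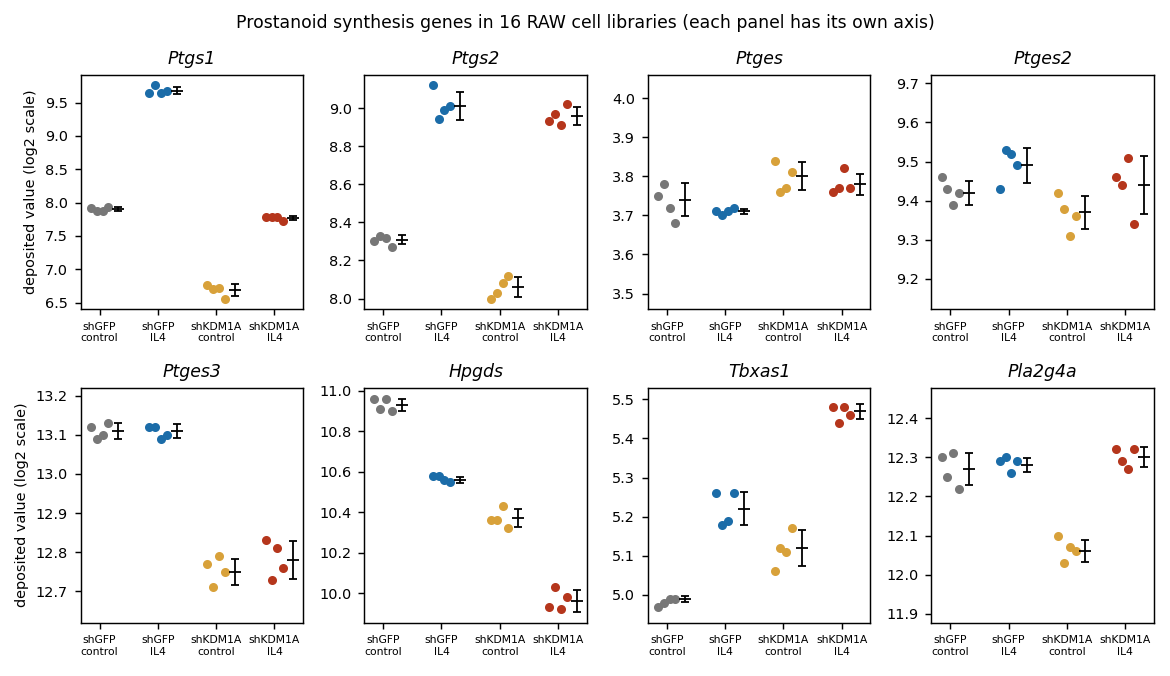
Deposited log2 value of each of the 8 genes in each of the 16 libraries, by group, with the mean and SD of 4 libraries at the right of each group; each panel has its own vertical axis. Ptgs1 runs from 6.56 to 9.76 and the group means of each other gene lie within 1 unit of each other.

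Ptgs1 encodes COX-1 and showed the widest range of the 8 genes. The gene lies on chromosome 2 of mm9 from 36085946 to 36107791 (plus strand), and the closest GENCODE transcript has 11 exons. Its log2 values were 7.92, 7.88, 7.87 and 7.94 in untreated shGFP libraries and 9.64, 9.76, 9.64 and 9.67 after IL4. In shKDM1A libraries they were 6.76, 6.71, 6.72 and 6.56 without IL4 and 7.79, 7.79, 7.78 and 7.72 with IL4. The 4 groups did not overlap. IL4-treated shKDM1A cells lay just below untreated shGFP cells, with means of 7.77 ± 0.035 and 7.90 ± 0.033 (SD, n = 4), a pair that was not one of the comparisons tested.

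IL4 raised Ptgs1 by 1.77 in shGFP cells (standard error 0.038, 3.42-fold, adjusted p = 7.58e-15, limma), which ranked 3 among the rises of all 12905 genes. In shKDM1A cells the rise was 1.08 (standard error 0.038, 2.12-fold, adjusted p = 3.11e-12, limma), at rank 15. Against shGFP cells, Ptgs1 in shKDM1A cells fell by 1.21 without IL4 (adjusted p = 3.78e-13, limma), at rank 10 among the falls. With IL4 it fell by 1.91 (adjusted p = 2.07e-15, limma), at rank 3 among the falls. The IL4 response of shKDM1A cells minus that of shGFP cells was -0.69 on this scale (standard error 0.053, 95% interval -0.81 to -0.58, adjusted p = 1.22e-06, limma).

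How far that last difference depends on the scale can be read in part from the replicates. At 103.1 scaled reads, the level of untreated shKDM1A cells, counting alone would give an SD of 0.142, and the 4 libraries had an SD of 0.086. In untreated shGFP cells, at 239.2 scaled reads, the SD was 0.033 against a counting error of 0.093, and in IL4-treated shKDM1A cells, at 218.2, it was 0.035 against 0.098. At 818.5 scaled reads, in IL4-treated shGFP cells, counting would give 0.050 and the SD was 0.055. Over all tested genes the median ratio of the SD to the counting error was 0.04 in each group for genes under 32 scaled reads, 0.63 to 0.76 from there to 1024, and 1.07 to 1.60 at 1024 or more, so the deposited values are drawn together where reads are few. The SD of Ptgs1 was thus below counting error in 3 of the 4 groups, in both lines, so its fold changes in either line may be understated, by amounts these values do not give. The sign of the difference in response on the scale of plain read ratios was not tested.

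Ptgs2 encodes COX-2, the inducible cyclooxygenase, and lies on chromosome 1 of mm9 from 151947161 to 151955364 (plus strand). Its log2 values were 8.30, 8.33, 8.32 and 8.27 in untreated shGFP libraries and 9.12, 8.94, 8.99 and 9.01 after IL4. Without IL4 the shKDM1A libraries were at 8.00, 8.03, 8.08 and 8.12, all below the untreated shGFP libraries. With IL4 they were at 8.93, 8.97, 8.91 and 9.02, which overlaps the IL4-treated shGFP libraries.

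The rise of Ptgs2 with IL4 was 0.71 in shGFP cells (standard error 0.035, 1.63-fold, adjusted p = 1.85e-10, limma) and 0.90 in shKDM1A cells (standard error 0.035, 1.86-fold, adjusted p = 1.15e-11, limma). Untreated shKDM1A cells were lower by 0.25 on the log2 scale (adjusted p = 3.04e-05, limma). With IL4 the difference between the lines was -0.06 with a 95% interval from -0.13 to 0.02 (adjusted p = 0.214, limma). The IL4 response was larger by 0.19 in shKDM1A cells (95% interval 0.09 to 0.30, adjusted p = 0.033, limma), the opposite sign to Ptgs1. This call was lost without shGFP control replicate 1, 2 or 3, shGFP IL4 replicate 2, 3 or 4, or shKDM1A control replicate 1 or 2, with adjusted p from 0.00791 to 0.0657 over all 16 fits without 1 library, and with the filter removed (adjusted p = 0.0978). Apart from IL4-treated shGFP cells (0.073 against 0.063), the SD of Ptgs2 was below counting error too. The sign of its difference in response on plain read ratios was not tested.

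**Figure D2:**
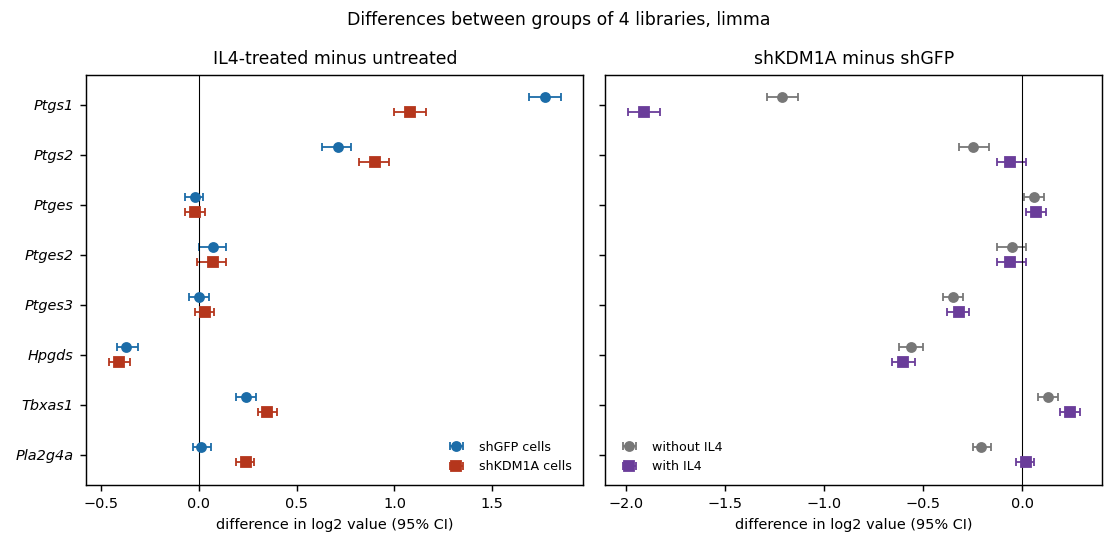
Differences in log2 value with 95% confidence intervals from limma for the 8 genes, IL4-treated minus untreated on the left and shKDM1A minus shGFP on the right. Ptgs1 is farthest from 0 in all 4 comparisons, and Hpgds lies below 0 in all 4.

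Per kilobase of annotated exon, which allows the cyclooxygenase genes to be compared, the difference of Ptgs1 minus Ptgs2 in the same library was 0.26, 0.18, 0.19 and 0.31 log2 units in untreated shGFP cells. It was 1.16, 1.46, 1.29 and 1.30 in IL4-treated shGFP cells. In shKDM1A cells it was -0.60, -0.68, -0.73 and -0.92 without IL4 and -0.50, -0.55, -0.49 and -0.66 with IL4. Ptgs1 was thus the higher of the pair in all 8 shGFP libraries and Ptgs2 in all 8 shKDM1A libraries. In untreated shGFP cells that order depends on the annotated lengths used, 2853 bases for Ptgs1 and 4448 for Ptgs2. IL4 moved the difference by 1.07 in shGFP cells (exact two-sided permutation p = 0.0286, the smallest that 4 against 4 libraries allow, adjusted over 4 comparisons 0.0381). In shKDM1A cells it moved by 0.18, the groups overlapped, and the exact permutation p was 0.0571. Between the lines, shKDM1A minus shGFP, it differed by -0.97 without IL4 and by -1.85 with IL4 (exact permutation p = 0.0286 for each, adjusted 0.0381). Before division by length, Ptgs1 had fewer scaled reads than Ptgs2 in 3 of the 4 groups, at 239.2 and 316.9 in untreated shGFP cells, 103.1 and 266.8 in untreated shKDM1A cells and 218.2 and 497.0 with IL4 in shKDM1A cells, so the drawing together of low values touches this comparison as well.

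**Figure D3:**
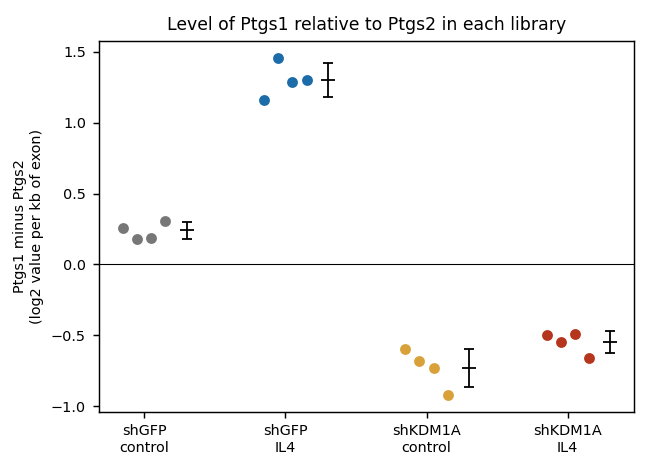
Ptgs1 minus Ptgs2 in each library as a difference of log2 values per kilobase of exon, by group, with the mean and SD of 4 libraries at the right. All 8 shGFP libraries lie above 0 and all 8 shKDM1A libraries below it.

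Ptges, Ptges2 and Ptges3 encode enzymes with prostaglandin E synthase activity, and none passed the test for IL4 in either line. PTGES is the inducible microsomal enzyme, and its gene was close to the floor of these data, with values from 3.68 to 3.84 over all 16 libraries, 13.1 to 13.9 scaled reads by group mean. In untreated shGFP libraries Ptges was at 3.75, 3.78, 3.72 and 3.68 and in untreated shKDM1A libraries at 3.84, 3.76, 3.77 and 3.81, which overlap. Its differences between the lines, 0.06 without IL4 (adjusted p = 0.04998, limma) and 0.07 with IL4 (adjusted p = 0.0259, limma), passed the threshold narrowly. The first was kept in 3 of 16 fits that left out 1 library (shGFP control replicate 2, shKDM1A control replicate 2 or shKDM1A IL4 replicate 3), with adjusted p up to 0.163 over the 16. The second was lost without shGFP IL4 replicate 1, 2 or 3 or shKDM1A IL4 replicate 3, with adjusted p up to 0.0842. At this depth counting error alone is near 0.39, and the SD of the 4 IL4-treated shGFP libraries was 0.007, so neither difference of Ptges can be read as a difference in reads.

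PTGES2 is another membrane-associated PGE synthase, and Ptges2 passed in no comparison. It was at log2 values of 9.46, 9.43, 9.39 and 9.42 in untreated shGFP libraries, 9.43, 9.53, 9.52 and 9.49 after IL4, 9.42, 9.38, 9.31 and 9.36 in untreated shKDM1A libraries and 9.46, 9.44, 9.51 and 9.34 with IL4. All 4 groups overlapped with at least one other. The IL4 differences were 0.07 in both lines, with 95% intervals reaching 0.14, and the differences between lines were -0.05 and -0.06, with intervals from -0.13 to 0.02.

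Ptges3 encodes p23, the cytosolic PGE synthase that is also a co-chaperone of HSP90, and was the most abundant of the 8 genes per kilobase in every group. It was at 13.12, 13.09, 13.10 and 13.13 in untreated shGFP libraries and 13.12, 13.12, 13.09 and 13.10 after IL4. In shKDM1A libraries they were 12.77, 12.71, 12.79 and 12.75 without IL4 and 12.83, 12.73, 12.81 and 12.76 with IL4. Ptges3 was lower in shKDM1A cells without overlap, by 0.35 without IL4 (1.28-fold, adjusted p = 4.89e-09, limma) and by 0.32 with IL4 (1.25-fold, adjusted p = 1.39e-08, limma). With IL4 it differed by 0.00 in shGFP cells (95% interval -0.05 to 0.05) and by 0.03 in shKDM1A cells (95% interval -0.02 to 0.08).

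Hpgds encodes the hematopoietic prostaglandin D synthase and was the one member that IL4 lowered. Its log2 values were 10.96, 10.91, 10.96 and 10.90 in untreated shGFP libraries and 10.58, 10.58, 10.56 and 10.55 after IL4. In shKDM1A libraries they were 10.36, 10.36, 10.43 and 10.32 without IL4 and 9.93, 10.03, 9.92 and 9.98 with IL4. The 4 groups did not overlap and stepped down in that order. IL4 lowered Hpgds by 0.37 in shGFP cells (1.29-fold, adjusted p = 3.48e-08, limma) and by 0.41 in shKDM1A cells (1.32-fold, adjusted p = 1.06e-08, limma). In shKDM1A cells Hpgds was lower than in shGFP cells by 0.56 without IL4 (1.48-fold, adjusted p = 9.71e-11, limma) and by 0.60 with IL4 (1.52-fold, adjusted p = 4.29e-11, limma). The IL4 response differed between the lines by -0.04, with a 95% interval from -0.12 to 0.04 (adjusted p = 0.608, limma). Hpgds is also a gene of mast cells, whose 7 markers were under 1 in every library.

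Tbxas1 encodes thromboxane A synthase and ran in the opposite order to Hpgds at its ends. Libraries were at 4.97, 4.98, 4.99 and 4.99 in untreated shGFP libraries, 5.26, 5.18, 5.19 and 5.26 after IL4, 5.06, 5.12, 5.11 and 5.17 in untreated shKDM1A libraries and 5.48, 5.44, 5.48 and 5.46 with IL4. The 4 groups did not overlap. IL4 raised it by 0.24 in shGFP cells (adjusted p = 1.47e-06, limma) and by 0.35 in shKDM1A cells (adjusted p = 1.66e-08, limma). The knockdown libraries were higher by 0.13 without IL4 (adjusted p = 0.000514, limma) and by 0.24 with IL4 (adjusted p = 8.66e-07, limma). The difference in IL4 response, 0.11, did not pass (95% interval 0.04 to 0.18 before adjustment, adjusted p = 0.0722, limma), and it passed in 1 of the 16 fits that left out a library, the one without shKDM1A control replicate 4 (adjusted p = 0.0388). Tbxas1 was at 31.7 to 44.2 scaled reads by group mean. The SD of 0.008 in untreated shGFP libraries stands against a counting error of 0.256, so the p-values of Tbxas1 rest on a spread far below counting error. Of the markers of platelets and megakaryocytes, other cells that use this gene, Gp9 and Ppbp were under 1 in every library, and Itga2b, Pf4 and Gp1ba were tested and passed in none of the 4 group comparisons.

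**Figure D4:**
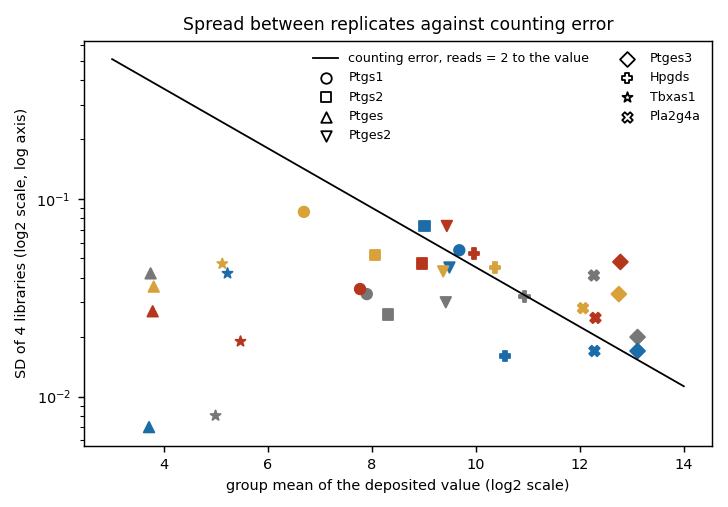
SD of 4 libraries against the group mean of the deposited value for the 8 genes (shapes; grey shGFP control, blue shGFP IL4, ochre shKDM1A control, red shKDM1A IL4), with a line at the counting error of 2 to the power of the value; the vertical axis is logarithmic. Ptges and Tbxas1 lie far below the line in all 4 groups and Ptges3 above it in all 4.

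Pla2g4a encodes cytosolic phospholipase A2 alpha, which supplies arachidonic acid to both cyclooxygenases. On mm9 it lies on chromosome 1 from 151676749 to 151808420 (minus strand), a neighbour of Ptgs2. Its log2 values were 12.30, 12.25, 12.31 and 12.22 in untreated shGFP libraries and 12.29, 12.30, 12.26 and 12.29 after IL4. In shKDM1A libraries they were 12.10, 12.03, 12.07 and 12.06 without IL4 and 12.32, 12.29, 12.27 and 12.32 with IL4. Only untreated shKDM1A libraries stood apart, below the other 12. IL4 raised Pla2g4a by 0.24 in shKDM1A cells (1.18-fold, adjusted p = 5.78e-07, limma), while in shGFP cells the difference was 0.01 (95% interval -0.03 to 0.06). In shKDM1A cells Pla2g4a was lower by 0.21 without IL4 (adjusted p = 1.64e-06, limma), and with IL4 the difference was 0.02 (95% interval -0.03 to 0.06). The IL4 response was larger in shKDM1A cells by 0.22 (95% interval 0.16 to 0.29, adjusted p = 0.000596, limma), and this passed in all 16 fits that left out a library.

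On the scale of log2 value per kilobase, the order in untreated shGFP cells was Ptges3 (12.15), Pla2g4a (10.77), Hpgds (9.21), Ptges2 (8.47), Ptgs1 (6.39), Ptgs2 (6.15), Tbxas1 (4.01) and Ptges (1.87). Each neighbouring pair in this order was farther apart than the SD of either gene, which was at most 0.042. With IL4, Ptgs1 in shGFP cells came to 8.16, near Ptges2 at 8.53 and Hpgds at 8.85. In shKDM1A cells Ptgs1 stayed below Ptgs2 at 5.18 and 5.91 without IL4 and at 6.26 and 6.80 with IL4. In IL4-treated shKDM1A cells Hpgds, at 8.25 ± 0.053, was below Ptges2, at 8.48 ± 0.073 (SD, n = 4).

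Over the 16 libraries, which share the 4 groups, the members varied together in different ways. Pearson's r was 0.76 for Ptgs1 with Ptgs2, 0.79 for Ptges3 with Hpgds and -0.89 for Hpgds with Tbxas1. The last pair includes Tbxas1, whose SD was far below counting error in every group. Of all tested genes, the 5 whose values were most like those of Ptgs1 were Itgax (r = 0.987), Eno3 (0.985), Mfsd6 (0.982), Klhl33 (0.982) and Plek (0.981). Itgax, which encodes the integrin CD11c, had means of 6.69 and 7.23 in shGFP cells without and with IL4 and of 6.30 and 6.59 in shKDM1A cells. The 5 most like Ptgs2 were Dmpk (0.993), Fam20c (0.990), Id3 (0.986), Extl3 (0.984) and Pdgfa (0.981). Id3, an inhibitor of helix-loop-helix factors, had means of 8.42 and 10.33 in shGFP cells and of 7.42 and 10.01 in shKDM1A cells. These correlations are descriptions, given with no p, since the libraries are not independent of their groups.

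No other tested gene of the pathway lists below differed as much as Ptgs1 in any of the 4 comparisons of groups. Of 25 other phospholipases A2 and arachidonate-releasing enzymes listed, 12 were tested. IL4 raised Pla2g12a, Pla2g15 and Abhd12 and lowered Abhd6 in shGFP cells, and in shKDM1A cells it raised the same 3 and lowered Abhd6 and Pnpla8. Without IL4, 2 of the 12 were higher in shKDM1A cells (Pla2g5 and Pnpla8) and 2 lower (Pla2g4f and Abhd12). With IL4, 2 were higher (Pla2g12a and Pla2g5) and 2 lower (Pla2g15 and Pla2g4b). Of these, Pla2g4f (means of 2.26 to 2.35) and Pla2g4b (3.76 to 3.82) were under 32 scaled reads. These counts of 4, 5, 4 and 4 of 12 stand beside 26.9%, 27.1%, 38.2% and 40.7% of all genes, and the list's median stayed between -0.02 and 0.00 in the 4 group comparisons. None of the 12 changed by more than 0.5 in them.

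Among 11 other terminal synthases and carbonyl or aldo-keto reductases, 6 were tested. Akr1b8, an aldo-keto reductase, was at 10.56, 10.58, 10.51 and 10.57 in untreated shGFP libraries and at 11.34, 11.39, 11.41 and 11.37 in untreated shKDM1A libraries. With IL4 it was at 10.57, 10.55, 10.55 and 10.56 in shGFP cells and at 11.39, 11.34, 11.40 and 11.31 in shKDM1A cells, again with no overlap. It was higher in shKDM1A cells by 0.82 without IL4 (1.77-fold, adjusted p = 1.27e-13, limma) and by 0.80 with IL4 (1.74-fold, adjusted p = 1.68e-13, limma). Akr1b3 and Cbr3 were also higher and Cbr1 and Cbr2 lower in shKDM1A cells in both states, with Cbr2 at means of 3.76 to 3.89, under 32 scaled reads, where the limit given for Ptges holds as well. IL4 lowered Akr1b3 in both lines and Cbr1 in shGFP cells, and raised none of the 6. In all, 2 and 1 of 6 passed for IL4 in shGFP and shKDM1A cells, beside 26.9% and 27.1% of all genes, and 5 of 6 passed between the lines in each state, beside 38.2% and 40.7%. The list's median was 0.12 and 0.10 for shKDM1A against shGFP cells without and with IL4, and -0.03 and -0.06 for IL4. Ptgds, which encodes the other PGD2 synthase, and Ptgis, the prostacyclin synthase, were not tested because their values were under 1.

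Of the receptors, Ptger1, Ptger4, Ptgdr2 and Ptgir were tested, 4 of 10 listed, with a median of 0.11 and 0.03 for IL4 in shGFP and shKDM1A cells and of 0.03 and -0.06 for shKDM1A against shGFP cells without and with IL4. Ptger4, the EP4 receptor for PGE2, was at 8.69, 8.84, 8.83 and 8.77 in untreated shGFP libraries and 8.88, 8.94, 8.94 and 9.06 after IL4. In shKDM1A libraries it was at 8.63, 8.71, 8.58 and 8.48 without IL4 and 8.83, 8.84, 8.93 and 8.91 with IL4. IL4 raised Ptger4 in both lines, by 0.17 (adjusted p = 0.0138, limma) and by 0.28 (adjusted p = 0.000387, limma), and it was lower in shKDM1A cells by 0.18 without IL4 (adjusted p = 0.00755, limma). With IL4 the lines differed by -0.08 (95% interval -0.18 to 0.03). Ptger1, the EP1 receptor, rose by 0.13 with IL4 in shGFP cells (adjusted p = 0.004, limma) and was at 9.72 to 9.96 over all libraries. Ptgir, the prostacyclin receptor, fell with IL4 in shKDM1A cells. It was higher in shKDM1A than in shGFP cells without IL4 and lower with IL4. Of the 4 receptors it was the 1 whose IL4 response differed between the lines, beside 6.13% of all genes. Ptgdr2 passed in no comparison. Of the 4 receptors, 2 and 2 passed for IL4 in shGFP and shKDM1A cells and 2 and 1 between the lines without and with IL4, beside the same shares of all genes. Ptger2 and Ptger3 were at 0.17 to 0.22 and at 0.00, under the filter.

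Of the 5 tested transport and breakdown genes of 8 listed, Hpgd, which starts prostaglandin breakdown, was lower in shKDM1A cells in both states and Zadh2 too, while Ptgr2 was higher. IL4 lowered Hpgd in shGFP cells and none of the 5 passed in shKDM1A cells, beside 26.9% and 27.1% of all genes, while 3 of 5 passed between the lines in each state, beside 38.2% and 40.7%. The list's median was between -0.05 and 0.00 in the 4 comparisons of groups. Group means of Hpgd lay between 3.82 and 4.03, in the range where these values are drawn together most.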

How the data were processed

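RNA-seq of shGFP and shKDM1A RAW cells was analysed, 4 groups of 4 libraries assigned from the labels. Per the file headers, the authors counted exon reads with HOMER on both strands against RefSeq genes (mm9), with 1 row per gene. HISAT2, Bowtie2 and DESeq2 are also named in the submitters' processing notes, and versions are not given in the sources used here. The deposited RAW values are on a log2 scale, scaled between libraries and moderated at low levels. The transformation is not named, decimals are commas, and no count model can be run on them. Counting on both strands does not separate overlapping genes. The deposited log2 fold changes and p-values of the authors' own comparisons, 4 for BMDMs and 3 for RAW cells, were not used.

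A single limma model of the 4 group means was fitted to all 16 libraries (lmFit and eBayes in limma 3.58.1, R 4.3.3). Genes entered if at least 4 libraries had a value of 1 or more, and p-values of each comparison were adjusted by Benjamini-Hochberg. The planned pseudocount was not added to logarithms. The counting error was computed as that of 2 to the power of the group mean. Library totals of 17554721 to 27782568 tags did not enter it. The limma step was tested on simulated data. As alternatives, the filter was removed or raised, only the groups compared were fitted, a replicate block or a trended prior was added, values were median-centred or quantile-normalized, and each library was left out. Genes named were the 8 members, Kdm1a, listed pathway genes past 0.5 in a group comparison, the PGE2 receptors, and the 5 genes most like Ptgs1 and Ptgs2. Other genes that passed were named without values to give the counts content. The members and lists were chosen with earlier results of these data known. The 250 bases before each start come from the RefSeq promoter table (GRCm38.p6), which had all 8 genes. The other assays of the series were not analysed here.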

Additional observations from a re-analysis of the deposited data

Results flagged for a closer look

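The IL4 response differed between shKDM1A and shGFP cells in 3 of the 8 genes by the interaction test of limma, beside 6.13% of all genes. On the deposited log2 scale it was smaller in shKDM1A cells for Ptgs1 (-0.69, adjusted p = 1.22e-06). Values with few reads are drawn together on that scale, and the sign on plain read ratios was not tested for any of the 3. The response was larger for Ptgs2 (0.19, adjusted p = 0.033), a call lost without a filter and in 8 of 16 fits that left out 1 library, and for Pla2g4a (0.22, adjusted p = 0.000596), which passed in all of these. For Ptgs2 and Pla2g4a the untreated shKDM1A libraries were the low ones, and with IL4 the lines overlapped.

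In 1 of 32 sets of 4 libraries, a library stood apart from the other 3 by Dixon's criterion, Ptgs1 in IL4-treated shKDM1A cells, where replicate 4 was at 7.72 and the next lowest at 7.78. Chance alone gives about 1 such set in 20. Without any 1 library, the Ptgs1 rise in shKDM1A cells stayed between 1.04 and 1.11.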

How the results depend on the processing

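Of the 40 differences of the 8 genes, 30 kept their sign and their side of the threshold in every alternative run. The 10 that did not were 0.19 or less in size. The call of Ptges between untreated lines was lost without a filter, with only the groups compared in the model, with the replicate block (0.06, adjusted p = 0.0769), with median centring and with quantile normalization. That of Ptges with IL4 was lost in 4 fits that left out 1 library. The Ptgs2 difference in IL4 response was lost without a filter and with the replicate block (0.19, adjusted p = 0.0557). The block changed no other call of these genes, and same-numbered libraries did not deviate together: the correlation was over 0.1 in 3 of 24 pairs, and 6 of 16 libraries correlated best with their own number. Leaving out shKDM1A IL4 replicate 4 gave a call for Ptges2 with IL4 in shKDM1A cells (0.10, adjusted p = 0.0221), and leaving out shKDM1A control replicate 4 gave one for the Tbxas1 difference in response (0.13, adjusted p = 0.0388).

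Signs turned only in differences that did not pass. Ptges3 with IL4 in shGFP cells was -0.0022 with quantile normalization and ran from -0.0074 to 0.0082 without 1 library. Pla2g4a with IL4 in shGFP cells ran from -0.0010 to 0.0283 without 1 library, and between IL4-treated lines it was -0.0325 with quantile normalization. The difference in IL4 response of Ptges2 was 0.0088 with median centring and 0.0040 with quantile normalization and ran from -0.0262 to 0.0322 without 1 library, and that of Ptges ran from -0.0077 to 0.0251. Without a filter, 431 genes of 25094 tested, rather than 791 of 12905, differed in IL4 response. Of the genes called between the lines, 51.7% without IL4 and 51.3% with IL4 were higher in shKDM1A cells, against 43.2% and 45.0% with quantile normalization and 51.8% and 56.7% with median centring. The stricter filter of at least 5 removed Ptges, and the pseudocount was not run. Values under 1024 scaled reads spread less than counting error in the median gene, which limits Ptges and Tbxas1 most.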
